A study of Mus musculus with 9 samples.

Results

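The 78 genes described here, called splicing genes below, mostly encode the protein machinery of pre-mRNA splicing. Some LSm genes among them, such as Lsm10, Lsm11 and Lsm14b, belong to other RNA particles. The cells are CD8+ T cells of the mouse, lymphocytes that kill infected and tumour cells. The 78 genes were taken by symbol from the 20618 genes of the tables: every gene whose symbol starts with Snrp, Lsm and a digit, Sf3a or Sf3b and a digit, Prpf, Srsf or Hnrnp. The 1 pseudogene row with such a stem was left out. The rule used no measured value. By role the genes are 8 Sm core proteins, 4 proteins specific to the U1 or U2 particle, 9 subunits of SF3A and SF3B, 13 LSm proteins, 13 PRPF factors, 11 SR proteins and 20 hnRNP proteins.

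Splicing removes introns from a primary transcript. The spliceosome that does this is built from small nuclear ribonucleoproteins (snRNPs), each a small nuclear RNA in a ring of Sm or LSm proteins with further proteins of its own. U1 recognises the 5′ splice site, U2 with SF3A and SF3B recognises the branch point, and the U4/U6 and U5 particles bring in the PRPF factors of the catalytic core. SR proteins and heterogeneous nuclear ribonucleoproteins (hnRNPs) bind the transcript itself and steer which exons are kept. In T cells one such switch, brought about by Hnrnpll, changes the exons of the phosphatase CD45 after activation.

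RNA was sequenced from sorted live wild-type CD8+ T cells after 24 h in 1 of 3 media, each with 10% dialyzed FBS, which is serum depleted of small molecules. The first medium held 2 mM inosine with hypoxanthine, the second 2 mM inosine and the third 2 mM glucose, with 3 libraries each. Inosine is a nucleoside that cells split into hypoxanthine and a ribose sugar. The hypoxanthine dose is not given here because its unit is damaged in the labels, and no label says whether the 3 libraries in each medium are of different mice or cultures. P-values therefore measure the spread between these libraries, which may be technical.

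Levels are FPKM, sequenced fragments corrected for the length of the gene and the size of the library, so they can be compared between genes. The deposited tables name no unit for these columns, which were taken as FPKM from their values. Depth ran from 30779615 to 49978430 recovered reads per library. T cell markers were high and those of other lineages low: the summed level of 6 T cell genes was 1141 to 1226 FPKM with hypoxanthine, against 622 to 830 FPKM in inosine and 680 to 733 FPKM in glucose, while in any library the summed markers reached at most 4.27 FPKM for 5 myeloid genes, mostly Cd68, 1.83 FPKM for 4 B cell genes and under 0.5 FPKM for each list of CD4 T cells, NK cells and erythroid cells. The T cell marker sum was higher with hypoxanthine, although 1 of its 6 genes, Cd2, had its lowest mean there, and its part in the results below was not tested. The libraries numbered 2 of both inosine media stood apart, with mitochondrial transcripts at 5.84% of FPKM in the hypoxanthine library and 6.50% in the inosine library, against 4.03% to 4.82% in the other 7. Calls that were lost or gained without these 2 libraries are given below.

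Splicing factor transcripts were abundant. Over the 9 libraries, 76 of the 78 genes averaged at least 1 FPKM, 74 averaged over 10 FPKM and 26 over 100 FPKM, and the median gene averaged 61.3 FPKM against 0.753 FPKM for all genes. The highest was Hnrnpa1, which binds RNA and often promotes exon skipping, with 661, 658 and 644 FPKM with hypoxanthine, against 715, 692 and 708 FPKM in inosine and 725, 633 and 676 FPKM in glucose. The hypoxanthine libraries lay below those of inosine and inside the range of glucose, and neither comparison passed the test (limma adjusted p = 0.34 against inosine and 0.69 against glucose). Snrpn, the imprinted relative of Snrpb that is best known from neurons, and Srsf12 were close to 0, with at most 7 and 14 reads in any library, and no fold is given for them.

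The summed level of the 78 transcripts was lower with hypoxanthine. It was 7238, 7312 and 7208 FPKM with hypoxanthine, against 8076, 8169 and 8017 FPKM in inosine and 8247, 8122 and 8133 FPKM in glucose. The hypoxanthine libraries lay below all others, and those of inosine and glucose overlapped. As a share of recovered reads the sum was 2.16%, 2.08% and 2.15% with hypoxanthine, against 2.32%, 2.25% and 2.28% in inosine and 2.28%, 2.36% and 2.33% in glucose. In bulk RNA, fewer cells of a type and less RNA per cell cannot be told apart.

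The comparison of hypoxanthine with inosine asks what the added base does on top of the nucleoside. In it 17 of the 78 genes passed the test (21.8%), against a background of 21.3% of all genes and 32.9% of the 9947 genes that averaged at least 1 FPKM. The share lies near that of all genes and below that of genes averaging at least 1 FPKM, as 76 of the 78 did. That set was not matched more closely for level. By direction, 13 fell (16.7%) and 4 rose (5.13%), where 9.59% of all genes fell and 11.7% rose, and of those averaging at least 1 FPKM 16% fell and 16.9% rose. After median-of-ratios scaling 17 fell and 2 rose, and the share of all genes under this scaling is not given here. The count of 17 calls dropped to 8 without inosine library 3, to 7 without hypoxanthine library 1 and to 6 without hypoxanthine library 3. Calls over all genes moved as well, from 4382 with all 9 libraries to between 2757 and 4487 without 1 library. The 13 were Snrpd3, Snrpa1, Sf3b5, Lsm7, Prpf3, Prpf19, Prpf31, Prpf38a, Srsf2, Srsf3, Hnrnpc, Hnrnpdl and Hnrnpk, and the 4 were Prpf40b, Lsm11, Lsm14b and Hnrnpll. The median log2 difference of the 78 genes was -0.09, against 0.00 for all genes, with 56 negative and 22 positive values. Negative values made up 45.2% of all genes and 47.4% of those averaging at least 1 FPKM. For 26 of the 78 genes the 2 media had no overlap between their libraries, against 34.4% of all genes and 49.3% of those averaging at least 1 FPKM.

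Against glucose, with the same hypoxanthine libraries, 16 genes passed (20.5%, background 20.3% of all genes and 30.9% of those averaging at least 1 FPKM). Of these 14 fell and 2 rose, where 9.55% of all genes fell and 10.8% rose (15.9% and 15% of those averaging at least 1 FPKM), and the median was -0.12 against 0.00. This count of 16 dropped to 8, 9 and 6 without hypoxanthine library 1, 2 and 3, and to 7 and 8 without glucose library 2 and 3. It dropped to 5 with a replicate block within the 6 libraries compared. Calls over all genes moved as well, from 4192 with all 9 libraries to between 2677 and 4879 without 1 library. For 41 of the 78 genes hypoxanthine and glucose libraries had no overlap, against 37.6% of all genes and 55% of those averaging at least 1 FPKM. Since both comparisons share the hypoxanthine libraries, the 12 genes called in both are not independent repeats. On the log2(FPKM + 1) scale differences ran from -0.54 for Lsm7 to 0.37 for Lsm14b against inosine and from -0.61 for Snrpa1 to 0.28 for Hnrnpll against glucose, and the intervals of the 76 genes that averaged at least 1 FPKM lay within 1 log2 unit of 0 in both. The largest rise depends on the scale, which compresses low genes: Prpf40b, at 0.36 and 0.25 here, reached 0.58 against inosine and 0.40 against glucose with a pseudocount of 0.1, where Lsm14b had 0.40 against inosine and Hnrnpll 0.29 against glucose. The plot of log2 differences by role shows 75 of the genes that averaged at least 1 FPKM.

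**Figure D1:**
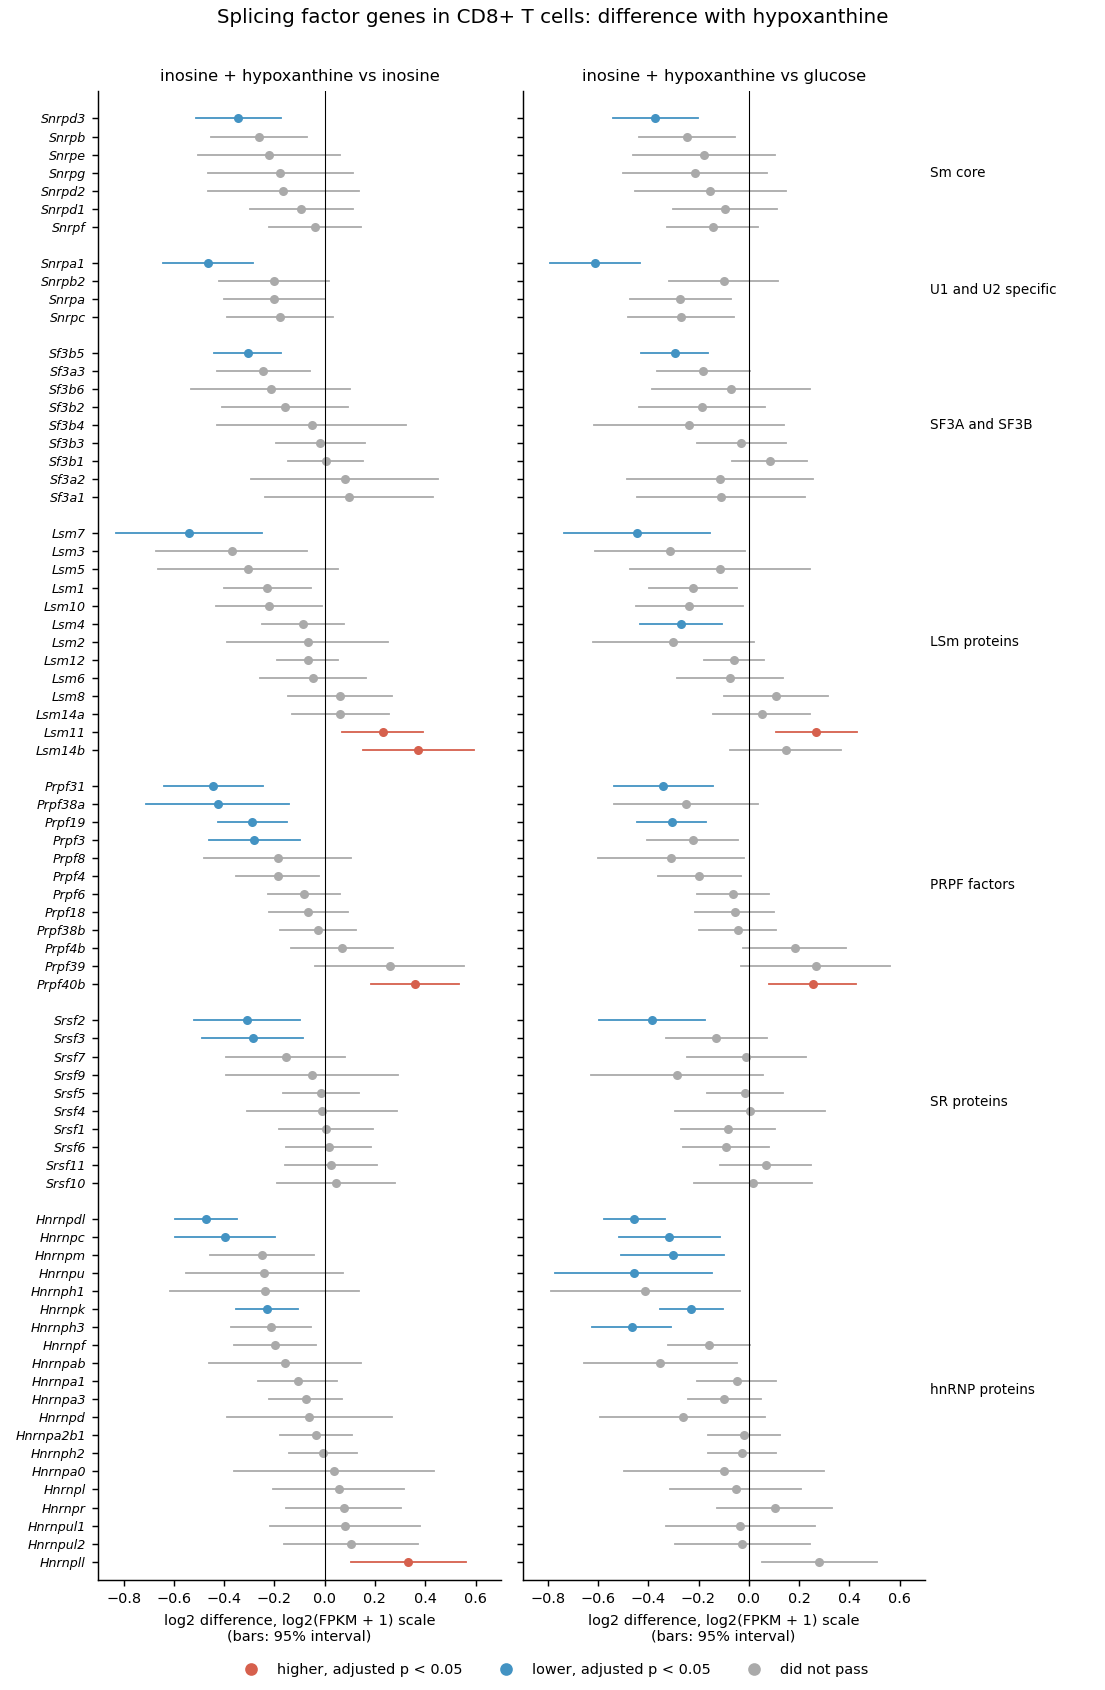
Log2 difference on the log2(FPKM + 1) scale (x axis, bars are 95% intervals from limma) of 75 of the 76 splicing genes that averaged at least 1 FPKM, by role, for inosine + hypoxanthine against inosine (left) and against glucose (right). Most points lie left of 0, from -0.61 (Snrpa1) to 0.37 (Lsm14b), and blue points fell and red points rose at an adjusted p under 0.05.

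The 2 libraries numbered 2 of the inosine media were also left out, an omission chosen after seeing the data. Without them 16 splicing genes passed against inosine (3 higher and 13 lower) and 20 against glucose (3 higher and 17 lower). Over all 20618 genes, 3576 then passed against inosine (1949 higher and 1627 lower) and 4130 against glucose (2232 higher and 1898 lower). With all 9 libraries these were 4382 and 4192. Of the genes named here, calls were lost against inosine for Prpf3 (-0.22, limma adjusted p = 0.17) and Lsm11 (0.21, limma adjusted p = 0.13). Against glucose they were lost for Hnrnpm (-0.24, limma adjusted p = 0.13), Lsm4 (-0.22, limma adjusted p = 0.063) and Prpf40b (0.26, limma adjusted p = 0.095). Calls were gained against inosine for Snrpb (-0.27, limma adjusted p = 0.045) and against glucose for Lsm14b (0.24, limma adjusted p = 0.048), Hnrnpll (0.34, limma adjusted p = 0.014) and Srsf3 (-0.21, limma adjusted p = 0.044). In the authors' deposited tables, 24 of the 78 had an adjusted p under 0.05 against inosine (2 higher and 22 lower, background 22.7%) and 33 against glucose (4 higher and 29 lower, background 26.5%). These backgrounds count either direction over all genes with an adjusted p there, also those averaging under 1 FPKM. They are therefore not a like set for the splicing genes. None of the 78 passed the authors' joint rule of an unadjusted p under 0.05 and a log2 fold change over 1. The share of all genes passing that rule is not given here. The largest change of the 78 in the authors' deposited tables was 0.574 in size against inosine and 0.641 against glucose. Genes called there but not by limma included Hnrnph3, Hnrnpm and Snrpb against inosine (adjusted p = 0.0066, 0.0079 and 0.013). Against glucose they included Prpf8, Hnrnpll, Hnrnpd and Snrpb (adjusted p = 0.0024, 0.0059, 0.0066 and 0.0089). Hnrnpll and Lsm11, called by limma against inosine, did not pass in the authors' deposited table (adjusted p = 0.053 and 0.057).

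For single genes 18 other settings were tried, which do not include the minimum difference of 1.5 times given near the end. Snrpa1 and Hnrnpdl had the steadiest falls: their calls held in both comparisons under all 18. Sequence is shown for the start of these genes and of Prpf40b, the gene whose rise against inosine was the steadiest of the 4. The Prpf40b call against glucose was lost in 11 of the 18 settings. Each is 300 bases of GRCm38.p6, 250 before and 50 from the annotated start, from RefSeq. Capitals mark the GC box, GGGCGG or its reverse complement CCGCCC, a sequence bound by Sp1 family factors. The Snrpa1 window is chr7:66060086-66060385 on the + strand, that of Hnrnpdl is chr5:100039173-100039472 on the - strand, and that of Prpf40b is chr15:99294991-99295290 on the + strand.
Snrpa1: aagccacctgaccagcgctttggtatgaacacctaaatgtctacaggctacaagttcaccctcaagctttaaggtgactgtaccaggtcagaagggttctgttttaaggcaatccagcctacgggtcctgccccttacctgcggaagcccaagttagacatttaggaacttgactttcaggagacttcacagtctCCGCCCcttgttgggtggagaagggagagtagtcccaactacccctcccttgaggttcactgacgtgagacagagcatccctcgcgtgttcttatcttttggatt
Hnrnpdl: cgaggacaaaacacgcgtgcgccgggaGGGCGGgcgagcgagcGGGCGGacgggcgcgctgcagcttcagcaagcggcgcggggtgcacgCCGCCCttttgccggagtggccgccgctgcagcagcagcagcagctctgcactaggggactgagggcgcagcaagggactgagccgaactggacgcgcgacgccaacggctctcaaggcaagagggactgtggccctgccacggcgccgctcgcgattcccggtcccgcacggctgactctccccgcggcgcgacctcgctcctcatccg
Prpf40b: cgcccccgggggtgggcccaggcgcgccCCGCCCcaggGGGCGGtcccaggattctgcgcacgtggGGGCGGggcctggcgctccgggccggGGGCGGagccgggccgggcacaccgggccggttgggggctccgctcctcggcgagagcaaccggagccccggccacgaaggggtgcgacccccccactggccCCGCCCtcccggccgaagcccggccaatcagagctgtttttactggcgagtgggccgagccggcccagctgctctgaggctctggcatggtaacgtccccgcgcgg
These windows hold 1, 3 and 5 GC boxes in the order shown. RefSeq lists a further start of Prpf40b, with a window at chr15:99303034-99303333 on the + strand that holds 0.

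Of the 78 genes, 67 have a promoter window in the RefSeq table, among them 12 of the 13 that fell against inosine, and the shares below are over these 67. The GC box was in 71.6% of them, against 70.0% of the 8066 genes that averaged at least 1 FPKM and had a window and 38.2% of all genes with one. The E-box CACGTG was in 13.4%, against 12.3% and 8.09%, and the ETS motif CCGGAAG, read on both strands like the others, in 31.3%, against 23.6% and 9.93%. The NRF1 motif GCGCATGC was in 8.96%, against 6.72% and 3.05%. These are matches of letters, not sites, and the splicing genes were close to other expressed genes for the GC box and the E-box.

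Among the Sm core, the ring of proteins around the U1, U2, U4 and U5 RNAs, 1 of 8 genes fell in each comparison (12.5%) and 0 rose. The background for this and every other role is the share of genes averaging at least 1 FPKM. Of those, 16% fell and 16.9% rose against inosine, and 15.9% fell and 15% rose against glucose. Snrpd3, which encodes Sm protein D3, had 176, 190.1 and 178 FPKM with hypoxanthine, against 229, 241 and 221 FPKM in inosine and 250.1, 217 and 238 FPKM in glucose. All 3 hypoxanthine libraries were below the other 6. The log2 difference was -0.34 (95% interval -0.51 to -0.17, limma adjusted p = 0.012) against inosine and -0.37 (95% interval -0.54 to -0.20, limma adjusted p = 0.0086) against glucose. The call for Snrpd3 was lost against inosine without hypoxanthine library 3 (adjusted p = 0.051). Its call against glucose was lost with a replicate block within the 6 libraries compared (adjusted p = 0.087). The D3 exons overlap those of Gucd1, at 5.03 FPKM on the opposite strand, by 146 bases, and the sources used here do not state whether reads were counted by strand.

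Snrpb, the Sm B protein, had 206, 179.7 and 192 FPKM with hypoxanthine, against 240.3, 211 and 242 FPKM in inosine and 243, 222 and 221 FPKM in glucose. No hypoxanthine library overlapped the other media, yet the test was narrowly missed at a limma adjusted p of 0.059 against inosine and 0.073 against glucose. Snrpg, the Sm gene of highest level, had 324, 386 and 343 FPKM with hypoxanthine, against 388, 464 and 346 FPKM in inosine and 453, 364 and 407 FPKM in glucose, and the media overlapped (limma adjusted p = 0.40 and 0.29). Of the 7 Sm genes above 1 FPKM, all 7 had a negative difference in both comparisons. Of genes averaging at least 1 FPKM, 47.4% did against inosine and 50.3% against glucose.

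In the U1 and U2 group 1 of 4 genes fell in each comparison and 0 rose. Snrpa1, which encodes U2 protein A′, a partner of the U2 stem loop protein encoded by Snrpb2, had 51.0, 48.0 and 52.4 FPKM with hypoxanthine, against 73.8, 68.1 and 68.2 FPKM in inosine and 85.7, 75.7 and 72.0 FPKM in glucose. Every hypoxanthine library was under 53 FPKM and every other library over 68 FPKM. The log2 difference was -0.46 (95% interval -0.64 to -0.28, limma adjusted p = 0.0039) against inosine and -0.61 (95% interval -0.79 to -0.43, limma adjusted p = 0.0011) against glucose, so that its mean with hypoxanthine was 0.721 times that in inosine. Snrpa1 exons overlap those of Gm45213, on the same strand, by 148 bases. Snrpb2 itself had 55.5, 66.6 and 54.8 FPKM with hypoxanthine, against 64.1, 72.4 and 66.8 FPKM in inosine and 62.2, 58.8 and 68.6 FPKM in glucose, with overlap in both comparisons (limma adjusted p = 0.19 and 0.53). Snrpc, the U1 protein that helps bind the 5′ splice site, had 103, 88.5 and 92.6 FPKM with hypoxanthine, against 115, 97.1 and 109 FPKM in inosine and 125, 109.6 and 108 FPKM in glucose and did not pass (limma adjusted p = 0.23 and 0.075). All 4 genes had negative differences in both comparisons, as did 47.4% (inosine) and 50.3% (glucose) of genes averaging at least 1 FPKM.

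In SF3A and SF3B, which hold U2 at the branch point, 1 of 9 genes fell in each comparison and 0 rose. Sf3b5, which encodes a small SF3B subunit, had 96.7, 97.4 and 92.3 FPKM with hypoxanthine, against 117, 117 and 120.3 FPKM in inosine and 123, 115 and 114 FPKM in glucose, with no overlap. Its log2 difference was -0.31 (95% interval -0.44 to -0.17, limma adjusted p = 0.0066) against inosine and -0.30 (95% interval -0.43 to -0.16, limma adjusted p = 0.0082) against glucose. The call for Sf3b5 against glucose was lost with a replicate block within the 6 libraries compared (adjusted p = 0.056). Sf3b1, the large scaffold subunit that clamps the branch helix, had 49.7, 52.7 and 52.7 FPKM with hypoxanthine, against 53.9, 51.2 and 49.6 FPKM in inosine and 48.5, 46.2 and 51.5 FPKM in glucose. Its media overlapped, with intervals of the log2 difference from -0.15 to 0.15 against inosine and from -0.07 to 0.23 against glucose. A change of the size seen for Sf3b5 lies outside both Sf3b1 intervals.

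The LSm proteins serve several complexes, and here 1 of 13 fell and 2 rose against inosine, while 2 fell and 1 rose against glucose. Lsm7, shared by the nuclear ring on U6 RNA and the cytoplasmic ring of mRNA decay, had 90.2, 126 and 108 FPKM with hypoxanthine, against 145, 177 and 147 FPKM in inosine and 153, 136 and 150.0 FPKM in glucose. Its log2 difference was -0.54 (95% interval -0.83 to -0.25, limma adjusted p = 0.018) against inosine, the largest fall of the 78 in that comparison, and -0.45 (95% interval -0.74 to -0.15, limma adjusted p = 0.039) against glucose. The call for Lsm7 was lost against inosine without hypoxanthine library 1 or 3 (adjusted p = 0.053 to 0.059), and in 1 further setting; it was lost against glucose without hypoxanthine library 1 or 3, or inosine library 3, or glucose library 1, 2 or 3 (adjusted p = 0.058 to 0.11), and in 3 further settings. The library numbered 2 was the highest of its medium for Lsm7 both with hypoxanthine and in inosine, and without both of these the difference was -0.56 in each comparison (limma adjusted p = 0.014 and 0.0096). Other ring members did not pass limma's test against inosine, where the authors' deposited table gives Lsm3 a log2 fold change of -0.42 (adjusted p = 0.031) and Lsm1 one of -0.29 (adjusted p = 0.045). Lsm4, also shared by both rings, passed against glucose at -0.27 (95% interval -0.43 to -0.11, limma adjusted p = 0.029) and had 96.7, 85.3 and 93.5 FPKM with hypoxanthine, against 99.2, 97.8 and 95.3 FPKM in inosine and 111, 118 and 104 FPKM in glucose. The call for Lsm4 was lost against glucose without hypoxanthine library 2 or 3, or glucose library 1 or 2 (adjusted p = 0.074 to 0.095), and in 2 further settings.

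The LSm genes that rose belong to other particles. Lsm11, of the U7 particle that trims histone mRNA, had 2.87, 2.76 and 2.94 FPKM with hypoxanthine, against 2.48, 2.09 and 2.29 FPKM in inosine and 2.13, 2.42 and 2.06 FPKM in glucose. No hypoxanthine library overlapped the other media, and the log2 difference was 0.23 (95% interval 0.07 to 0.39, limma adjusted p = 0.04952) against inosine and 0.27 (95% interval 0.11 to 0.43, limma adjusted p = 0.028) against glucose. The call for Lsm11 was lost against inosine without hypoxanthine library 1, 2 or 3, or inosine library 2 or 3, or glucose library 1 or 3 (adjusted p = 0.056 to 0.15), and in 6 further settings; it was lost against glucose without hypoxanthine library 1, 2 or 3, or glucose library 1 or 3 (adjusted p = 0.055 to 0.1), and in 2 further settings. Its U7 partner Lsm10 had 13.1, 14.5 and 12.8 FPKM with hypoxanthine, against 14.2, 18.0 and 15.6 FPKM in inosine and 15.9, 17.0 and 15.2 FPKM in glucose and did not pass in either comparison (limma adjusted p = 0.13 and 0.11).

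Lsm14b, a protein of cytoplasmic mRNP granules that represses translation, had 14.1, 11.6 and 14.6 FPKM with hypoxanthine, against 10.8, 9.28 and 10.3 FPKM in inosine and 11.5, 12.9 and 11.7 FPKM in glucose. Its hypoxanthine libraries were above those of inosine and overlapped those of glucose, with log2 differences of 0.37 (95% interval 0.15 to 0.59, limma adjusted p = 0.026) against inosine and 0.15 (95% interval -0.07 to 0.37, limma adjusted p = 0.35) against glucose. The call for Lsm14b was lost against inosine without hypoxanthine library 1 or 3, or inosine library 2 or 3 (adjusted p = 0.066 to 0.1), and in 1 further setting. Lsm14b libraries were also lower in inosine than in glucose without overlap, a difference of -0.22 that did not pass after adjustment.

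Against inosine, PRPF factors had the largest share of falls among the 7 roles: 4 of 13 fell (30.8%) and 1 rose (7.69%). Falls in the other roles ran from 7.69% (LSm) to 25% (U1 and U2), where 16% of genes averaging at least 1 FPKM fell. Against glucose 2 PRPF factors fell and 1 rose. The PRPF share against inosine rests on few genes, and its difference from the other roles and from the background was not tested. Prpf31, which joins the U4/U6 particle to U5, had 37.1, 37.7 and 36.0 FPKM with hypoxanthine, against 44.1, 56.3 and 52.0 FPKM in inosine and 47.9, 46.9 and 46.2 FPKM in glucose. Its log2 difference was -0.44 (95% interval -0.64 to -0.25, limma adjusted p = 0.0072) against inosine and -0.34 (95% interval -0.54 to -0.14, limma adjusted p = 0.024) against glucose, with all hypoxanthine libraries below the rest. The call for Prpf31 was lost against glucose without hypoxanthine library 1, 2 or 3, or glucose library 1, 2 or 3 (adjusted p = 0.054 to 0.088). Prpf31 exons overlap those of Gm15927, at 0.565 FPKM on the opposite strand.

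Prpf19, the ubiquitin ligase that gives the Prp19 complex its name and acts as the spliceosome is activated, had 30.1, 28.0 and 29.2 FPKM with hypoxanthine, against 35.7, 34.2 and 37.4 FPKM in inosine and 36.3, 36.9 and 35.4 FPKM in glucose. The hypoxanthine libraries were again the lowest, and the log2 difference was -0.29 (95% interval -0.42 to -0.15, limma adjusted p = 0.01) against inosine and -0.31 (95% interval -0.44 to -0.17, limma adjusted p = 0.0079) against glucose. The call for Prpf19 against glucose was lost with the same block (adjusted p = 0.058). Prpf8, the scaffold around the catalytic RNA, had 52.5, 42.4 and 51.5 FPKM with hypoxanthine, against 62.4, 46.9 and 58.2 FPKM in inosine and 55.1, 67.2 and 59.6 FPKM in glucose and did not pass (limma adjusted p = 0.38 and 0.13). Prpf8 is the highest PRPF gene, and its hypoxanthine libraries lay below those of glucose and overlapped those of inosine.

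Prpf3 and Prpf38a also passed against inosine and are named here after their values were seen. Prpf3, a U4/U6 protein, had 14.3, 14.2 and 15.6 FPKM with hypoxanthine, against 17.2, 19.0 and 17.8 FPKM in inosine and 15.8, 19.0 and 17.2 FPKM in glucose, a log2 difference of -0.28 (95% interval -0.46 to -0.10, limma adjusted p = 0.037) against inosine. The call for Prpf3 was lost against inosine without hypoxanthine library 1, 2 or 3, or inosine library 2 or 3, or glucose library 3 (adjusted p = 0.057 to 0.11), and in 3 further settings. Prpf38a, which joins the spliceosome just before activation, had 35.3, 44.8 and 36.3 FPKM with hypoxanthine, against 43.4, 57.9 and 56.6 FPKM in inosine and 46.1, 44.4 and 47.9 FPKM in glucose, with 1 hypoxanthine library inside the range of inosine and a log2 difference of -0.43 (95% interval -0.71 to -0.14, limma adjusted p = 0.041). The call for Prpf38a was lost against inosine without hypoxanthine library 1 or 3, or inosine library 2 or 3, or glucose library 1, 2 or 3 (adjusted p = 0.06 to 0.14), and in 2 further settings. The overlapping Prpf38a library was the hypoxanthine library numbered 2, and without that and the inosine library numbered 2 the difference was -0.46 (limma adjusted p = 0.049).

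Prpf40b, which encodes a relative of a yeast U1 protein that bridges splice sites, rose. It had 1.62, 1.73 and 1.86 FPKM with hypoxanthine, against 1.22, 1.23 and 0.963 FPKM in inosine and 1.43, 1.29 and 1.17 FPKM in glucose, above the other media in every library, with log2 differences of 0.36 (95% interval 0.19 to 0.53, limma adjusted p = 0.011) against inosine and 0.25 (95% interval 0.08 to 0.43, limma adjusted p = 0.046) against glucose. At this low level the scale matters: with a pseudocount of 0.1 the differences were 0.58 and 0.40, with voom on recovered reads 0.58 and 0.44, and 0.53 and 0.41 in the authors' deposited tables. The call for Prpf40b against inosine was lost in 1 setting, a replicate block within the 6 libraries compared (adjusted p = 0.064). The call for Prpf40b was lost against glucose without hypoxanthine library 1, 2 or 3, or inosine library 1, or glucose library 2 or 3 (adjusted p = 0.052 to 0.15), and in 5 further settings.

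Among the SR proteins 2 of 11 fell and 0 rose against inosine, and 1 fell against glucose. Srsf2, also called SC35, which binds exonic enhancers and stays in the nucleus, had 161, 140.1 and 148 FPKM with hypoxanthine, against 203, 165 and 191 FPKM in inosine and 189, 207 and 191 FPKM in glucose. Its difference was -0.31 (95% interval -0.52 to -0.10, limma adjusted p = 0.044) against inosine and -0.38 (95% interval -0.59 to -0.17, limma adjusted p = 0.019) against glucose. The call for Srsf2 was lost against inosine without hypoxanthine library 1, 2 or 3, or inosine library 1 or 3, or glucose library 1, 2 or 3 (adjusted p = 0.055 to 0.13), and in 2 further settings; it was lost against glucose without hypoxanthine library 2 or 3, or glucose library 2 or 3 (adjusted p = 0.052 to 0.068), and in 1 further setting. Its exons overlap those of neighbouring genes on the opposite strand. Srsf3, which also takes part in mRNA export, had 122, 142 and 118 FPKM with hypoxanthine, against 144, 168 and 153 FPKM in inosine and 139.9, 133 and 143 FPKM in glucose and lay just inside the threshold against inosine, at -0.29 (95% interval -0.49 to -0.09, limma adjusted p = 0.04996), but not against glucose, at -0.13 (95% interval -0.33 to 0.07, limma adjusted p = 0.37). The call for Srsf3 was lost against inosine without hypoxanthine library 1 or 3, or inosine library 2 or 3, or glucose library 1, 2 or 3 (adjusted p = 0.068 to 0.18), and in 3 further settings. Its hypoxanthine library 2 overlapped the glucose range.

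Of the other SR genes, Srsf1 and Srsf7 did not pass. Srsf1, among the first SR proteins described, had 69.3, 64.4 and 68.9 FPKM with hypoxanthine, against 72.8, 63.7 and 65.6 FPKM in inosine and 65.0, 75.3 and 74.9 FPKM in glucose, with an interval of the log2 difference from -0.18 to 0.19 against inosine and from -0.27 to 0.10 against glucose. Srsf7, a close relative of Srsf3, had 76.3, 90.4 and 82.6 FPKM with hypoxanthine, against 82.1, 107 and 89.9 FPKM in inosine and 82.0, 81.7 and 87.0 FPKM in glucose, with intervals from -0.39 to 0.08 and from -0.25 to 0.23. Both overlapped between all media. The level plot shows 15 of the genes described, 14 of them called in 1 comparison at least.

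**Figure D2:**
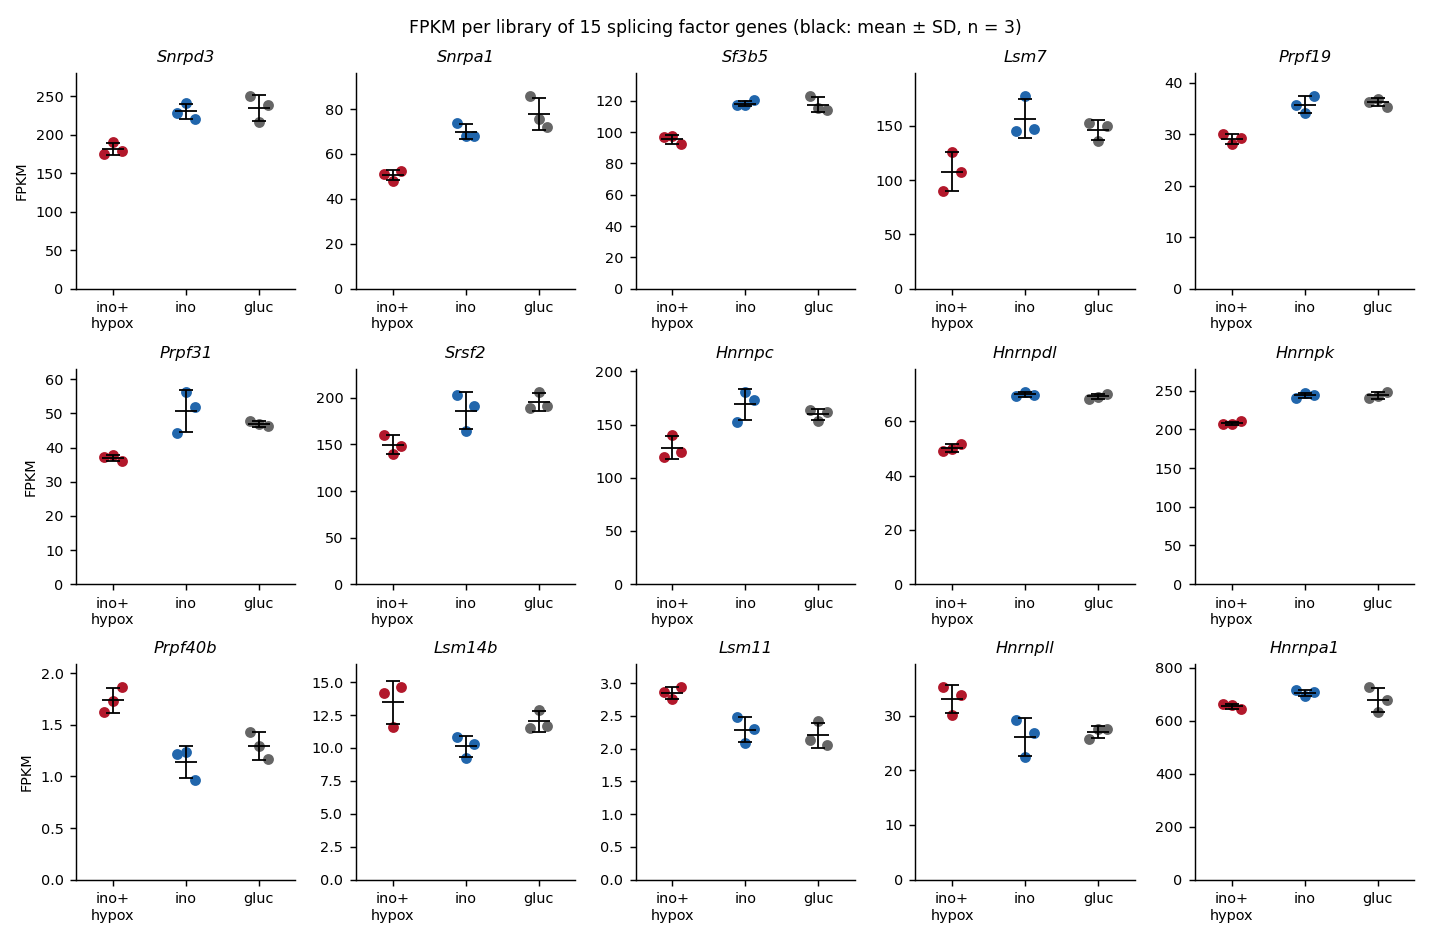
FPKM per library (y axis, from 0) of 15 splicing genes in inosine + hypoxanthine, inosine and glucose, from left to right, with the mean and SD of 3 libraries in black. Hnrnpdl stands at 48.9 to 51.7 FPKM with hypoxanthine, below 68.3 to 70.9 FPKM in the other media. Prpf40b, Lsm11 and Hnrnpll stand highest with hypoxanthine in every library, while Lsm14b does so by its mean only and overlaps glucose.

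Of the 20 hnRNP genes, 3 fell and 1 rose against inosine and 6 fell against glucose. Hnrnpdl, the D-like protein that binds AU-rich RNA, had 48.9, 50.004 and 51.7 FPKM with hypoxanthine, against 69.4, 70.9 and 69.6 FPKM in inosine and 68.3, 69.1 and 70.2 FPKM in glucose. Spread within a medium was small and the gap between media wide. Its log2 difference was -0.47 (95% interval -0.59 to -0.35, limma adjusted p = 0.00054) against inosine and -0.46 (95% interval -0.58 to -0.33, limma adjusted p = 0.00066) against glucose. Its namesake Hnrnpd had 34.9, 28.7 and 33.2 FPKM with hypoxanthine, against 42.2, 27.4 and 32.8 FPKM in inosine and 41.1, 39.0 and 36.5 FPKM in glucose and did not pass by limma (limma adjusted p = 0.82 and 0.25). The authors' deposited table gives Hnrnpd a log2 fold change of -0.29 against glucose (adjusted p = 0.0066).

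Hnrnpc, which binds uridine tracts and packages nascent transcripts, had 120.0, 141 and 124 FPKM with hypoxanthine, against 153, 181 and 174 FPKM in inosine and 164, 154 and 161 FPKM in glucose. Its difference was -0.39 (95% interval -0.59 to -0.20, limma adjusted p = 0.013) against inosine and -0.32 (95% interval -0.51 to -0.12, limma adjusted p = 0.034) against glucose, with no overlap. The call for Hnrnpc was lost against inosine without hypoxanthine library 1 or 3, or inosine library 3 (adjusted p = 0.051 to 0.057); it was lost against glucose without hypoxanthine library 1 or 3, or inosine library 3, or glucose library 1, 2 or 3 (adjusted p = 0.053 to 0.12), and in 1 further setting. Hnrnpk, which binds cytidine-rich RNA and DNA, had 207, 206 and 210.3 FPKM with hypoxanthine, against 240.0, 247 and 245 FPKM in inosine and 240.3, 243 and 248 FPKM in glucose. Its log2 difference was -0.23 (95% interval -0.35 to -0.10, limma adjusted p = 0.018) against inosine and -0.23 (95% interval -0.35 to -0.10, limma adjusted p = 0.019) against glucose. The call for Hnrnpk was lost against inosine without hypoxanthine library 1 or 3, or inosine library 3 (adjusted p = 0.057 to 0.058); it was lost against glucose without hypoxanthine library 1 or 3, or glucose library 2 or 3 (adjusted p = 0.0502 to 0.069), and in 1 further setting. For both genes each hypoxanthine library was below the other 6. Hnrnpk exons overlap those of Rmi1, at 4.85 FPKM on the opposite strand.

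Hnrnph3, which binds guanosine-rich RNA, had 20.4, 19.5 and 20.2 FPKM with hypoxanthine, against 24.1, 22.6 and 23.3 FPKM in inosine and 30.6, 27.0 and 26.5 FPKM in glucose. Its hypoxanthine libraries were the lowest, the glucose libraries the highest and those of inosine between, with no overlap among the 3 media. The fall was -0.47 (95% interval -0.62 to -0.31, limma adjusted p = 0.0021) against glucose, and against inosine the difference was -0.21 (95% interval -0.37 to -0.06, limma adjusted p = 0.06). Between inosine and glucose the difference was -0.25 with an unadjusted limma p of 0.0057, which did not pass after adjustment. Hnrnpm, a protein that binds guanosine and uridine rich RNA and named here after its values were seen, had 159.7, 139 and 155 FPKM with hypoxanthine, against 174, 179 and 186 FPKM in inosine and 167, 207 and 187 FPKM in glucose. By limma it passed against glucose only, at -0.30 (95% interval -0.51 to -0.10, limma adjusted p = 0.046). The authors' deposited table gives it a log2 fold change of -0.29 against inosine (adjusted p = 0.0079). Whether its 2 comparisons differ was not tested. Hnrnpm exons overlap those of March2, on the same strand, by 1149 bases. The call for Hnrnpm was lost against glucose without hypoxanthine library 1, 2 or 3, or inosine library 1 or 3, or glucose library 2 or 3 (adjusted p = 0.055 to 0.13), and in 4 further settings.

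Hnrnpll rose against inosine. It had 35.2, 30.1 and 33.8 FPKM with hypoxanthine, against 29.2, 22.4 and 26.7 FPKM in inosine and 25.7, 27.6 and 27.6 FPKM in glucose, with every hypoxanthine library above the others. The log2 difference was 0.33 (95% interval 0.10 to 0.56, limma adjusted p = 0.046) against inosine and 0.28 (95% interval 0.05 to 0.51, limma adjusted p = 0.086) against glucose. The call for Hnrnpll was lost against inosine without hypoxanthine library 1 or 3, or inosine library 2 or 3, or glucose library 1, 2 or 3 (adjusted p = 0.06 to 0.15), and in 3 further settings. The ratio of Hnrnpll to its relative Hnrnpl, chosen after the values were seen, was 0.194, 0.198 and 0.196 with hypoxanthine, against 0.167, 0.165 and 0.150 in inosine and 0.141, 0.158 and 0.167 in glucose. The ratio of Hnrnpdl to Hnrnpd was 1.40, 1.74 and 1.56 with hypoxanthine, against 1.64, 2.59 and 2.12 in inosine and 1.66, 1.77 and 1.92 in glucose, with overlap. That of Lsm14b to Lsm14a was 0.330, 0.306 and 0.340 with hypoxanthine, against 0.257, 0.257 and 0.256 in inosine and 0.309, 0.325 and 0.274 in glucose, with overlap against glucose only.

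For Hnrnph1 and Hnrnpu, FPKM and recovered reads moved apart. FPKM per recovered read, after depth is taken out, is constant for a gene of fixed length, and its range over the 9 libraries on the log2 scale had a median of 0.0107 over the 73 splicing genes with over 1000 reads in each library. It was 0.84 for Hnrnph1 and 0.59 for Hnrnpu, the nuclear scaffold protein SAF-A, against 46 of 5298 such genes over 0.5 (0.868%). Hnrnph1 had 107, 89.4 and 93.6 FPKM with hypoxanthine, against 127, 97.9 and 118 FPKM in inosine and 103, 163 and 126 FPKM in glucose, but 529 ± 20.6 RPM, recovered reads scaled by depth, with hypoxanthine, 527 ± 33.8 in inosine and 529 ± 21.2 in glucose (SD, n = 3). The spread of Hnrnph1 by FPKM was not seen in its reads.

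Hnrnpu had 85.2, 69.8 and 78.7 FPKM with hypoxanthine, against 92.4, 74.8 and 112 FPKM in inosine and 113, 104 and 104 FPKM in glucose and passed against glucose by FPKM, at -0.46 (95% interval -0.77 to -0.14, limma adjusted p = 0.047). By reads it had 915 ± 47.2 RPM with hypoxanthine, 983 ± 28.7 in inosine and 1027 ± 62.6 in glucose, and limma voom on recovered reads gave a log2 difference of -0.17 against glucose (adjusted p = 0.13). The call for Hnrnpu was lost against glucose without hypoxanthine library 1, 2 or 3, or inosine library 1, or glucose library 1, 2 or 3 (adjusted p = 0.063 to 0.15), and in 2 further settings. For Hnrnph1 voom gave 0.00 against glucose, where FPKM gave -0.41. The Hnrnpu exons also overlap those of Cox20 on the opposite strand. Hnrnpk, shown beside them, moved alike on both scales.

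**Figure D3:**
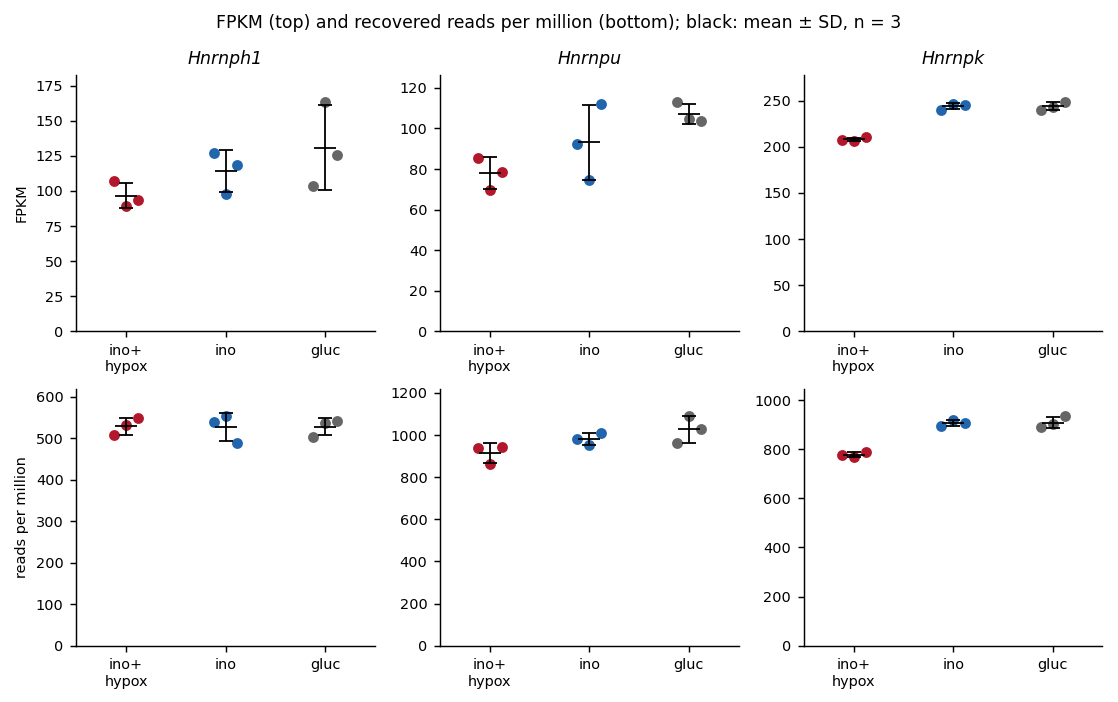
FPKM (top) and recovered reads scaled by depth (RPM, bottom) of Hnrnph1, Hnrnpu and Hnrnpk per library, in inosine + hypoxanthine, inosine and glucose from left to right, with mean and SD of 3 libraries in black. Hnrnph1 averages 96.6 FPKM with hypoxanthine and 131 FPKM in glucose but 529 RPM in both, while Hnrnpk is lowest with hypoxanthine on both axes.

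Between inosine and glucose no splicing gene passed limma's test (0 of 78), with 3 at an unadjusted p under 0.05, against a background of 0.0097% of all genes called (2 of 20618, 0.00485% higher and 0.00485% lower). Limma voom on recovered reads also called 0, and so did the authors' deposited table (background 0.00506%). Differences ran from -0.25 for Hnrnph3 to 0.19 for Lsm5, and the intervals of the 76 genes above 1 FPKM lay between -0.58 and 0.55. For 4 of the 78 genes the libraries of inosine and glucose had no overlap, against 5.05% of all genes and 5.13% of those averaging at least 1 FPKM. 

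Other proteins of the splicing machinery, taken as 8 lists of 110 genes of which 109 were in the tables, fell more often than they rose with hypoxanthine. Against inosine 26 fell, 4 rose and 79 did not pass (27.5% called), and against glucose 24 fell, 5 rose and 80 did not pass (26.6%), while the backgrounds were 32.9% and 30.9% of genes that averaged at least 1 FPKM, as 108 of the 109 did, and 21.3% and 20.3% of all genes. Both shares, which count either direction, lie below those of genes averaging at least 1 FPKM, a set not matched more closely for level. Between inosine and glucose 0 passed. By direction, 16% of genes averaging at least 1 FPKM fell and 16.9% rose against inosine, and 15.9% and 15% against glucose. The 26 and 24 falls are a larger share than that, and the 4 and 5 rises a smaller one, which was not tested. The share of falls differed between lists. Against inosine 8 of 17 other snRNP proteins and 7 of 12 genes of the SMN list, described next, fell. The largest list, other splicing regulators, had 3 of 35 lower and 2 higher in each hypoxanthine comparison, with medians of -0.03 and -0.06. Of the Prp19 complex list 4 of 15 fell against inosine, and 3 fell and 1 rose against glucose. Of 9 spliceosomal helicases 1 fell and 1 rose against inosine, and 1 fell against glucose. The median log2 difference of the 109 genes was -0.12 against inosine and -0.14 against glucose. The list of the SMN complex and Sm methylation, which loads Sm proteins onto the small RNAs, had 7 of 12 genes lower in each comparison and 0 higher, with a median of -0.36 and -0.33.

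Prmt5, the arginine methyltransferase that prepares Sm proteins B, D1 and D3 for loading, had 60.5, 59.7 and 62.2 FPKM with hypoxanthine, against 103, 109.9 and 106 FPKM in inosine and 104, 107 and 99.9 FPKM in glucose. The log2 difference was -0.80 ± 0.06 (SE, limma adjusted p = 6.7e-05) against inosine and -0.76 ± 0.06 (SE, limma adjusted p = 8.6e-05) against glucose, larger in size than that of any of the 78. Its partner Wdr77 had 18.8, 15.6 and 18.0 FPKM with hypoxanthine, against 26.7, 25.2 and 25.7 FPKM in inosine and 27.3, 29.9 and 27.7 FPKM in glucose, with log2 differences of -0.54 ± 0.08 (SE, limma adjusted p = 0.0018) and -0.67 ± 0.08 (SE, limma adjusted p = 0.00068). Both were lowest in every hypoxanthine library, and their calls held under all 18 other settings.

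The other snRNP proteins had 8 of 17 genes lower against inosine (47.1%) and 6 against glucose (35.3%), with 0 higher. For this and the next lists, 16% of genes averaging at least 1 FPKM fell and 16.9% rose against inosine, and 15.9% and 15% against glucose. Usp39, needed for tri-snRNP assembly, had 28.4, 29.3 and 29.2 FPKM with hypoxanthine, against 36.5, 41.8 and 39.9 FPKM in inosine and 39.3, 40.4 and 38.6 FPKM in glucose, a log2 difference of -0.43 ± 0.06 (SE, limma adjusted p = 0.0021) against inosine. Among the U2AF and branch point factors 2 of 9 fell against inosine, U2af1 and U2af2, the subunits that read the 3′ splice site, at -0.30 ± 0.08 (SE, limma adjusted p = 0.031) and -0.44 ± 0.13 (SE, limma adjusted p = 0.041). In the exon junction complex 1 of 6 fell against inosine, Rbm8a, at -0.39 ± 0.07 (SE, limma adjusted p = 0.0047). Of the SR protein kinases 1 of 6 rose, Srpk2, which had 7.09, 7.19 and 7.75 FPKM with hypoxanthine, against 4.84, 4.53 and 4.15 FPKM in inosine and 4.40, 5.05 and 4.39 FPKM in glucose, a log2 difference of 0.60 ± 0.08 (SE, limma adjusted p = 0.00098); Srpk1 had 43.4, 43.0 and 46.6 FPKM with hypoxanthine, against 49.0, 41.7 and 44.0 FPKM in inosine and 47.1, 46.1 and 44.8 FPKM in glucose and did not pass (limma adjusted p = 0.92). The call for U2af1 was lost in 7 of 18 other settings, among them without the libraries numbered 2 of both inosine media (limma adjusted p = 0.088), and that for U2af2 in 9.

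**Figure D4:**
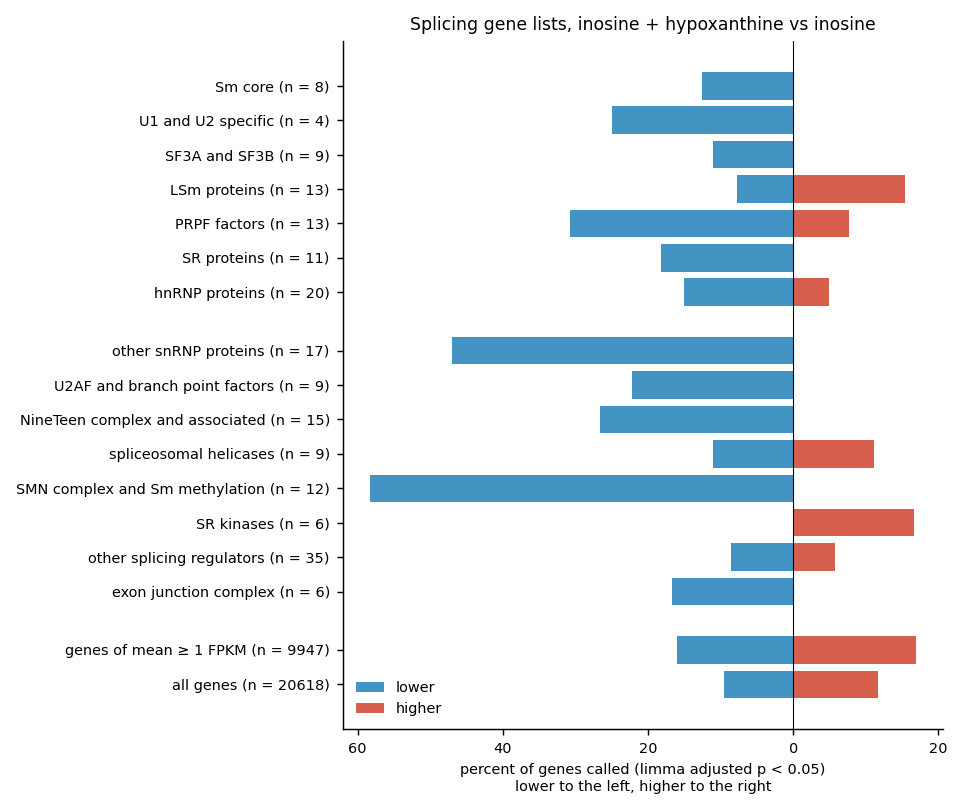
Percent of genes called lower (blue, to the left) and higher (red, to the right) in inosine + hypoxanthine against inosine (limma adjusted p under 0.05), for the 7 role groups at the top, the 8 other splicing lists in the middle and the backgrounds at the bottom. The SMN list stands at 7 of 12 lower and the SR kinases at 1 of 6 higher, against 16% lower and 16.9% higher of genes that averaged at least 1 FPKM and 9.59% lower and 11.7% higher of all genes.

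Splicing genes in the libraries numbered 2 often stood apart from the rest of their medium. In 53 of the 76 genes that averaged at least 1 FPKM, library 2 lay outside the range of the other libraries on the same side in both inosine media, above in 24 and below in 29 (69.7%), against 58.5% of 9947 genes. It lay on opposite sides in 9 (11.8%, against 11.4%). Of the 7 Sm genes 5 were above, among them Snrpd2, Snrpe and Snrpg, and 1 below, Snrpb. All 4 U1 and U2 genes were on the same side, Snrpb2 above and Snrpa, Snrpa1 and Snrpc below. Among hnRNP genes 10 of 20 were below and 4 above. In glucose, library 2 lay above the other libraries in 36 of the 76 genes and below them in 17. The part of mitochondrial share in this was not tested.

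**Figure D5:**
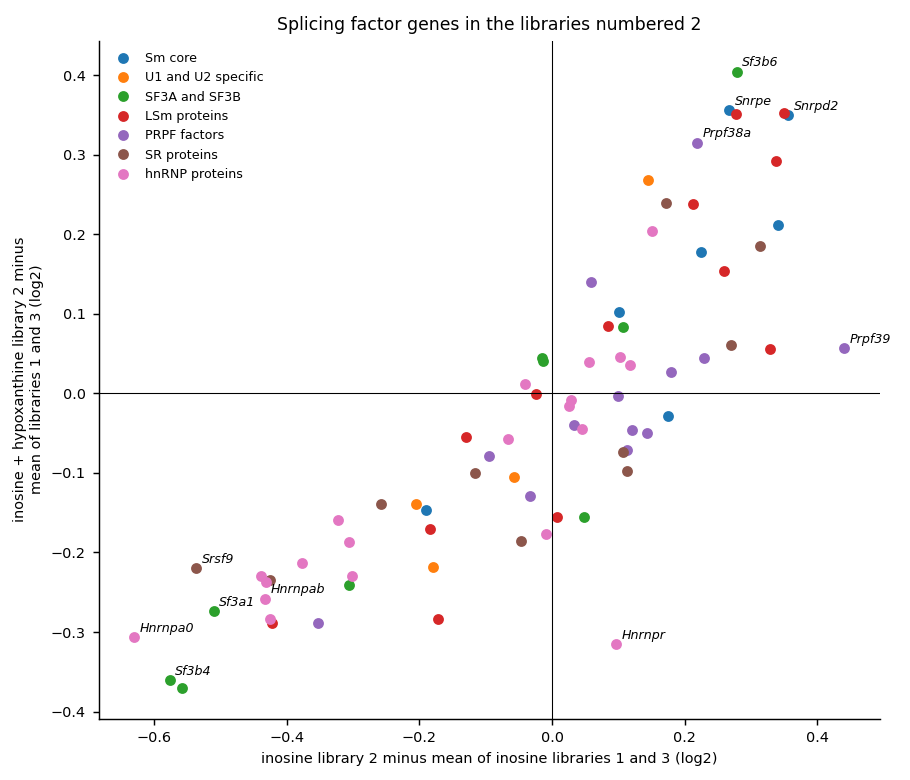
Log2 difference of library 2 from the mean of libraries 1 and 3 for each of the 76 splicing genes, in inosine (x axis) and inosine + hypoxanthine (y axis), coloured by role. Points lie mainly in the upper right and lower left, 24 above and 29 below the other libraries of both media, with Sf3b6 and Snrpd2 among the highest and Sf3b4 and Hnrnpa0 among the lowest.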

How the data were processed

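RNA-seq of 9 libraries, 3 per medium, was used, all of 1 batch per the labels. Per the submitters' processing notes the tools named were HISAT2, featureCounts, Subread 2.0.1 and DESeq2 1.38.3, with the mm10 genome, and the part each played is not given in the sources used here. The authors deposited FPKM per gene and library, with group mean signal (normalized read counts), log2 fold changes, p-values and adjusted p-values for each pair of media; fold changes of the deposited hypoxanthine tables were turned to hypoxanthine over the other medium. The header names no unit for the values per library, which were taken as FPKM because they were not whole, had near-equal sums and kept a constant ratio to reads within most genes.

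Levels were tested with limma 3.58.1 (R 4.3.3, trend and robust) on log2(FPKM + 1). One model with a term for each medium took in the 9 libraries and the 20618 genes, unfiltered, and left 6 residual degrees of freedom; calls needed a Benjamini-Hochberg adjusted p, taken over every gene, of under 0.05. A difference on this scale understates the change of low genes. Whole reads per library were recovered from the authors' deposited group means for 20575 genes (99.8%, with all 78 splicing genes) and used for depth, RPM (reads scaled by depth) and limma voom. Depth was 30779615 to 49978430 recovered reads. The test was first run on simulated data.

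Genes were named by rule: in each comparison the 8 largest rises and falls among called genes averaging at least 1 FPKM with no overlap, the highest gene of each role and 11 fixed genes. From each other list, up to 2 called genes with the smallest adjusted p and the highest gene could be named. Other genes named, such as Lsm10, Snrpb2 and Hnrnpd, were chosen after their values were seen. The values of 1 splicing gene are not reported here, and it stays in the counts. The genes and lists were chosen with earlier results of these data known. Alternatives changed the pseudocount, filter, scaling, block, libraries and settings of the fit. The exon overlaps come from GENCODE annotation of the same build.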

Additional observations from a re-analysis of the deposited data

How the results depend on the processing

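The number of splicing genes called against inosine was 17 and stayed between 12 and 23 under the other settings that kept every library, except that a minimum difference of 1.5 times left 0; without 1 library at a time it was 6 to 19. Against glucose it was 16 and stayed between 14 and 22 in the same way, with 1 left by that minimum, 5 by a replicate block within the 6 libraries compared and 6 to 21 without 1 library at a time. Over all genes the minimum left 1086 against inosine and 1004 against glucose, where leaving out 1 library gave 2757 to 4487 and 2677 to 4879, and the block within 6 libraries gave 2110 against glucose. Between inosine and glucose the 2 genes called became 0 with a filter at a mean of 1 FPKM, with 6 libraries, without trend and robust, with the fold minimum, with voom and with the block within 6 libraries, 1 with the replicate block or without the 2 libraries of highest mitochondrial share, and 1 to 7 without 1 library at a time. The replicate block over all 9 libraries gave 15 splicing genes in each hypoxanthine comparison and 0 between inosine and glucose. Same-numbered libraries had a correlation of deviations over 0.1 in 4 of 9 pairs (range -0.27 to 0.64), so the numbers were not taken to pair libraries.

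Of 33 calls of single splicing genes, 8 held under all 18 settings and 25 were lost under at least 1. The 18 do not include the minimum difference of 1.5 times. Signs turned only in genes that were not called. For Sf3b1 against inosine, the value was -0.032 after median-of-ratios scaling, -0.014 without the 2 libraries of highest mitochondrial share and -0.023 to 0.036 without 1 library. For Srsf1 against inosine the value was -0.031 after that scaling and -0.033 to 0.062 without 1 library. For Srsf7 against glucose it was 0.0039 with voom and -0.072 to 0.049 without 1 library, and for Hnrnpa1 against glucose -0.098 to 0.00078 without 1 library. The voom fit, the block within 6 libraries and the omission of 2 libraries were chosen after seeing the data, and the cause of these shifts was not tested. The 76 genes above 1 FPKM had at least 166 reads per library, the lowest being Prpf40b, and Snrpn and Srsf12 could not be compared.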
